A study of Mus musculus with 2 samples.

Results

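Lpl, Cd36, Fabp3, Fabp4, Cpt2, Acadvl, Acadl, Acadm, Hadha and Hadhb, 10 genes by which a cell takes up fatty acids from the blood and breaks them down in mitochondria, were taken by symbol from the 40276 features counted in a section of mouse heart and a section of mouse brain. All 10 were found and had counts in both sections. They were described in the summed counts of each section, across 6 groups of heart spots and across 10 groups of brain spots.

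The sections were 5 µm thick and cut from normal, formalin-fixed and paraffin-embedded (FFPE) tissue, in which RNA is crosslinked and fragmented. Total RNA was reverse transcribed in the tissue by the spRandom-seq method, with random primers and an array of barcoded spots, and the labels give both sections the same treatment, an RT primer without cell barcode 2. Each tissue is 1 section and 1 library (n = 1), and the strain, age and sex of the animals are not given in the sources used here. A spot is a small region that can hold several cells or part of one, spot positions were not used here, and groups of spots are called regions and known by a number and their leading genes.

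Heart muscle draws most of its energy from fatty acids, which arrive in the blood bound to albumin or packed as triglyceride in lipoproteins. Triglyceride is split at the capillary wall, the fatty acids cross into the muscle cell and are carried by binding proteins, activated with coenzyme A, passed into mitochondria as carnitine esters and shortened in repeated cycles of beta-oxidation. Neurons oxidise little fatty acid, and brain tissue runs mainly on glucose, with ketone bodies in fasting.

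Spots with at least 500 counts and 200 features were kept, 3726 in heart and 4080 in brain, with 44613867 counts in heart and 37143546 in brain. The median kept spot held 9049.5 counts in heart and 5981 in brain, and ribosomal RNA of nucleus and mitochondria made up 54.6% of heart counts and 34.9% of brain counts. Both libraries use the same list of 4992 barcodes, of which 3342 were kept in both. Levels are given as CPM, counts scaled to a section total of 1000000. With no replicate of a section, intervals (95%) cover counting error alone and no p-value can be given. Of the markers of the labelled tissues, Myh6, cardiac myosin, stood at 4126 CPM in heart and 2.32 CPM in brain, and Snap25, a synaptic protein, at 6.23 CPM in heart and 753 CPM in brain.

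The promoter windows of 3 genes that hold the core motif of nuclear receptor sites, and the window that Hadha and Hadhb share, are shown because these genes were high together in the heart section. Windows run from 250 bases before to 50 bases after the start site that RefSeq gives on GRCm38.p6, where 8 of the 10 genes were matched, and are written on the gene's strand. For Cd36 that start site lies 52.9 kb inside the span of the gene in the GENCODE annotation given below, and for the other 7 genes it lies within 182 bases of the annotated start. In the first 3 the capitals mark AGGTCA or its reverse complement TGACCT, the core that PPAR and related receptors bind, and in Hadhb they mark the stretch that lies in the Hadha window too.
Acadm (chr3:153944594-153944893, minus strand): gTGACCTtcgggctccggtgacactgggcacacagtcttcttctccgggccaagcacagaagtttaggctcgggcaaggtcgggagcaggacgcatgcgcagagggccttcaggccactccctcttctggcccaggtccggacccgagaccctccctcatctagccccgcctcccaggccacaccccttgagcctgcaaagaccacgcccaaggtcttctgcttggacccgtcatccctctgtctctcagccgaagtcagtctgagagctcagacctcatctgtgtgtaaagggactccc
Acadvl (chr11:70015379-70015678, minus strand): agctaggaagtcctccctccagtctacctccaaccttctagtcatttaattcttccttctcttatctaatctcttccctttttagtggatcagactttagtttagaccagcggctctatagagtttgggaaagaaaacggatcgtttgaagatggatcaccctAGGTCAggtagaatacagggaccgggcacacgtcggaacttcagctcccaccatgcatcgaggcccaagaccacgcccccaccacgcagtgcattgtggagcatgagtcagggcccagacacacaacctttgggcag
Cd36 (chr5:17835847-17836146, minus strand): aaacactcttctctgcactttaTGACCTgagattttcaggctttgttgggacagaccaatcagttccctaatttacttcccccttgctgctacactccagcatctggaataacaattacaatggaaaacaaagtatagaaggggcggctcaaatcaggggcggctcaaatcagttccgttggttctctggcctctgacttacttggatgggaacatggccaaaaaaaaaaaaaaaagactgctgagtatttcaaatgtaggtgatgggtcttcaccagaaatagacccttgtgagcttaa
Hadhb (chr5:30155003-30155302, plus strand): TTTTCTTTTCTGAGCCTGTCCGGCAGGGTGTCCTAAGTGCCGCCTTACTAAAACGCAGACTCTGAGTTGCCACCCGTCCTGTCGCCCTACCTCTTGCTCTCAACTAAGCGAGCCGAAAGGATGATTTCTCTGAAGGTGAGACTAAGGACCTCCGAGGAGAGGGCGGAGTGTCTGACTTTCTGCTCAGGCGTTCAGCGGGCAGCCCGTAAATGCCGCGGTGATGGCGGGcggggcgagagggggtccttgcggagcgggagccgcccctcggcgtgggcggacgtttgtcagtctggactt

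The motif AGGTCA, searched on both strands, began at position -249 in Acadm and -228 in Cd36, on the strand opposite to the gene, and at position -87 in Acadvl, on its own strand. It was found in 3 of the 8 windows and in 16.3% of all 32851 windows of the same length. The Acadm match is also the longer AAGGTCA, which contains AGGTCA and was found in 1 of the 8 windows and in 4.72% of all windows. The GC box GGGCGG was found in 5 of the 8 windows and in 35.7% of all windows. In the stretch both windows share, the Hadha match at position -188 is the same site as the Hadhb match at -90. That site is counted for both genes, so their windows are not independent. The CCAAT box was found in 1 of the 8 and in 37.4% of all windows. Hadha and Hadhb lie head to head on opposite strands of chromosome 5, with start sites 273 bases apart and windows that overlap by 228 bases. These matches describe letters only, and binding was not measured.

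Of the genes that free, take up and carry fatty acids, Lpl, Cd36 and Fabp3 had more counts in heart than any of the mitochondrial genes. Lpl, the secreted lipase that releases fatty acids from lipoproteins (chr8:68880491-68907448, plus strand, GENCODE annotation of GRCm38, as for all genes below), had 43738 counts in heart and 637 in brain, or 980.4 CPM (971 to 990) and 17.15 CPM (15.8 to 18.5). That placed Lpl 17th by counts among 21771 protein-coding genes in heart and 5814th in brain. Cd36, a membrane protein that takes up long-chain fatty acids (chr5:17781690-17888801, minus strand), had 22625 counts in heart and 272 in brain, or 507 CPM and 7.32 CPM. Cd36 ranked 47th in heart and 8985th in brain.

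Fabp3, the heart-type binding protein that carries fatty acids through the cytosol (chr4:130308595-130315463, plus strand), had 13322 counts in heart and 283 in brain, or 299 CPM and 7.62 CPM. Fabp4, a binding protein best known from fat cells and capillary endothelium (chr3:10204088-10208576, minus strand), had 4810 counts in heart and 9 in brain, or 108 CPM and 0.242 CPM (0.111 to 0.46). Its 9 brain counts lay in 9 different spots. The ratio of heart over brain was 57.2 for Lpl (52.9 to 61.9), 69.2 for Cd36 (61.4 to 78.3), 39.2 for Fabp3 (34.8 to 44.2) and 445 for Fabp4 (234 to 974), so the interval of Fabp4 lay above those of the other uptake genes and the interval of Fabp3 below them.

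The mitochondrial genes differed less between the sections, and all 6 of their intervals lay below those of the uptake genes. Cpt2, which turns acylcarnitine back into acyl-CoA at the inner membrane (chr4:107903981-107923610, minus strand), had 1290 counts in heart and 544 in brain, or 28.9 CPM (27.4 to 30.5) and 14.65 CPM (13.4 to 15.9). Its ratio of 1.97 (1.78 to 2.19) was the smallest of the 10. The 3 acyl-CoA dehydrogenases, which take the first step of each cycle on very long, long and medium chains, had 93.1 CPM in heart and 5.95 CPM in brain for Acadvl (chr11:70010183-70015411, minus strand), 187 and 8.64 for Acadl (chr1:66830839-66863277, minus strand), and 171 and 9.07 for Acadm (chr3:153922357-153944632, minus strand). Their ratios were 15.65 for Acadvl (13.7 to 18), 21.6 for Acadl (19.4 to 24.3) and 18.9 for Acadm (16.9 to 21.1).

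Hadha and Hadhb encode the alpha and beta subunits of the trifunctional protein, which carries out the remaining steps on long chains. Hadha (chr5:30118304-30155162, minus strand) had 9937 counts in heart and 822 in brain, or 223 CPM and 22.1 CPM, and Hadhb (chr5:30155248-30184593, plus strand) 8813 and 613, or 197.5 CPM and 16.5 CPM. Their ratios of heart over brain were 10.1 (9.37 to 10.8) and 12 (11 to 13). Hadha gave 1.13 counts for each count of Hadhb in heart (1.1 to 1.16) and 1.34 in brain (1.21 to 1.49).

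**Figure D1:**
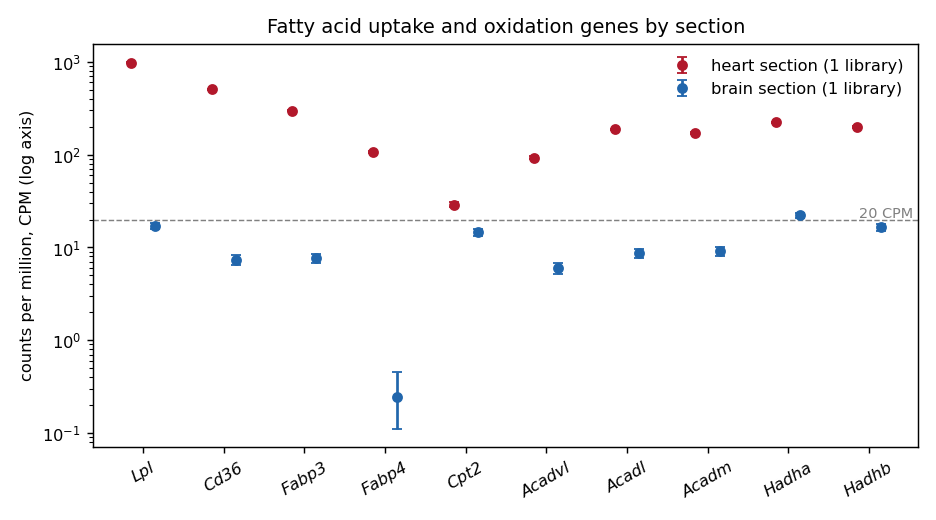
Level of the 10 genes in CPM (log axis) in the heart section (red, left of each pair) and the brain section (blue), with 95% Poisson intervals for counting error; many intervals are narrower than the points. Every gene is higher in heart, with Cpt2 at 28.9 against 14.65 CPM as the closest pair and Fabp4 at 108 against 0.242 CPM as the widest.

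A gene was counted as higher in a section at 4-fold or more and at least 20 CPM there. By that rule 9 of the 10 genes were higher in heart, all but Cpt2, and 0 were higher in brain. Among all 6345 features that reached 20 CPM in heart or brain, the same rule called 5.41% higher in heart and 17.2% higher in brain. The median log2 ratio of heart over brain was 4.33 for the 10 genes and -0.43 for the 11925 features that averaged 5 CPM or more over both sections. When CPM was taken over the counts outside ribosomal RNA, these medians were 4.86 and 0.10, and Cpt2 reached a ratio of 2.83 (2.56 to 3.13). Together the 10 genes held 0.616% of heart counts outside ribosomal RNA and 0.0168% of those in brain. In such sums fewer cells of a type and less RNA per cell cannot be told apart.

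Counts of different genes also depend on length, and per kilobase of annotated exon the order changed. Lengths merge every exon annotated for a gene, so these levels depend on the annotation. For Fabp4 the merged exons fill its whole span of 4.489 kb, and for Lpl they sum to 10.48 kb. Fabp3, whose exons sum to 0.823 kb, had the highest level of the 10 in both sections, at 363 CPM per kb in heart and 9.26 in brain. Cd36 followed in heart at 141, with Lpl and Acadl close together at 93.6 and 93.3, and Cpt2 was lowest in heart at 12.1 CPM per kb. In brain Cpt2 came after Fabp3 at 6.12 CPM per kb, ahead of Acadl at 4.31, and Fabp4 was lowest at 0.054. Per merged exon length Acadl exceeded Acadm by 2.13 times in heart (2.07 to 2.2) and 1.86 times in brain (1.59 to 2.17). By counts alone these ratios were 1.09 in heart (1.06 to 1.13) and 0.9525 in brain (0.815 to 1.11).

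Olfactory and vomeronasal receptor genes, which neither tissue is known for, were taken as a measure of background counts. The 1465 receptor genes with a length had 0.0865 CPM per kb of gene span in heart and 0.0671 in brain, or 0.204 and 0.158 per kb of exon. In heart every one of the 10 genes stood at least 17 times above the level that its span would collect. In brain Fabp4 stood at 0.805 times that level and Cd36, whose span of 107 kb is the longest of the 10, at 1.02 times, so neither was detectably above it, although Cd36 stood 12.9 times above the level that its exons would collect. Acadl stood at 3.97 times the span level in brain and the other genes at 6.07 to 17.0 times.

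Exons of other protein-coding genes overlap 3 of the 10. The exons of Acadvl overlap those of Dvl2, on the opposite strand, by 1151 bases, and whether strand was used in counting is not given in the sources used here. Dvl2 had 2.73 CPM in heart and 4.5 CPM in brain, against 93.1 and 5.95 for Acadvl. The exon overlaps of Fabp3 with Zcchc17 and of Hadha with Garem2 are 81 and 75 bases.

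Markers of other cell types were counted beside the 10 genes. The summed level of the 8 cardiomyocyte markers was 24855 CPM in heart and 616 CPM in brain, and that of the 7 endothelial markers 379 and 110.2 CPM. Of the 616 CPM in brain, Ryr2 alone gave 582.5 and Ttn 25.2, and each of the other cardiomyocyte markers at most 2.32. The brain sum is thus mainly a value of Ryr2. In heart Ttn gave 14864 of the 24855 CPM, so the heart sum is mainly a value of Ttn. That weighs on the cardiomyocyte sums over heart regions and spots below. The 6 fat cell markers, of which none was at 0, came to 13.1 CPM in heart and 9.88 CPM in brain. Adipoq, a hormone made by fat cells, had 1.59 CPM in heart and 0.808 in brain, against 108 and 0.242 CPM for Fabp4. The part of these cell types in the ratios was not tested.

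A further 81 genes of fatty acid handling were taken in 11 groups. Cpt1b, the muscle form of the outer carnitine transferase, and Etfb, a subunit of the electron acceptor of the dehydrogenases, were listed at 0 in both sections. Heart muscle is known to express both, so these zeros cannot be read as absence of the RNA, and both genes are left out of the counts below. Of the 79 with counts, 59 (74.7%) had a ratio above 1, against 34.5% of the 11925 features that averaged 5 CPM or more. By the rule of 4-fold and 20 CPM 16 of the 79 were higher in heart and 6 higher in brain, where the rule called 5.41% and 17.2% of all features that reached 20 CPM. These shares have unlike bases, because genes of the 79 under 20 CPM in both sections cannot pass. Examples are Plin5, 39.4-fold higher in heart, and Fabp7, 14.7-fold higher in brain. With no floor 20 of the 79 passed in heart and 7 in brain, and the share of all features without the floor is not given here. Their median log2 ratio of heart over brain was 0.72, or 1.24 over the counts outside ribosomal RNA. On that scaling 62 of the 79 (78.5%) had a ratio above 1, against 53.8% of all features, and 25 and 4 passed the rule, which then called 8.35% of all features higher in heart and 9.36% higher in brain.

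The group counts below stand beside 5.41% of all features of 20 CPM called higher in heart and 17.2% higher in brain. With 3 to 12 genes to a group, 1 or 2 calls in either direction are too few to set apart from those shares. Mitochondrial beta-oxidation came closest to the 10 genes. The median log2 ratio of its 11 further genes was 3.01, and 7 were higher in heart, among them Etfa, the partner subunit of Etfb, at 118 CPM in heart and 23.9 in brain, Etfdh, which passes electrons on to ubiquinone, at 95.0 and 10.45, and Hadh, the dehydrogenase for shorter chains, at 90.5 and 7.57. The carnitine shuttle had 2 of 5 higher in heart and 1 higher in brain. Crat, carnitine acetyltransferase, had 52.4 CPM in heart and 8.08 in brain, Slc25a20, the carnitine-acylcarnitine carrier, 22.8 and 4.68, and Cpt1a, the widely expressed outer transferase, 24.1 and 8.48, while Cpt1c, the neuronal form, had 2.98 in heart and 20.3 in brain.

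Activation of fatty acids with coenzyme A split by gene. Acsl1 had 176 CPM in heart and 30.9 CPM in brain (5.7-fold), and Acsl3 and Acsl6 had 7.6 and 7.8 CPM in heart and 73.1 and 69.7 CPM in brain. The group's median log2 ratio was -1.69, with 1 of 5 higher in heart and 2 higher in brain. None of the 6 further genes of uptake and binding passed the rule in either direction. Their median log2 ratio was -0.38, or 0.14 over the counts outside ribosomal RNA, and 2 of the 6 had a ratio above 1. Fabp7, another fatty acid binding protein, had 0.426 CPM in heart and 6.27 in brain. Slc27a1, a fatty acid transport protein, had 42 CPM in heart and 13.8 in brain, Slc27a4 had 4.39 and 13.1, and Dbi, the acyl-CoA binding protein, 13.3 in each section. None of the 6 further genes of lipoprotein lipolysis passed it either. Vldlr, a lipoprotein receptor, had 120 CPM in heart and 42.4 in brain, and Lmf1, which matures the lipase in the endoplasmic reticulum, 17.9 and 17.7. Gpihbp1, which anchors Lpl at the capillary wall, had 300 counts in heart and 2 in brain, or 6.72 and 0.0539 CPM.

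All 12 regulators had ratios above 1, and 3 of them, Pdk4, Ppara and Acacb, passed the rule in heart. Pdk4, the kinase that turns off pyruvate dehydrogenase, had 140 CPM in heart and 4.71 CPM in brain (29.8-fold, 25.6 to 34.8). Esrrg, an orphan nuclear receptor, had 261 CPM in heart and 136 in brain, and Ppargc1a, a coactivator of mitochondrial genes, 109 and 60.6, both under 4-fold. Ketone body genes had 1 of 6 higher in heart, the monocarboxylate transporter Slc16a1 at 78.2 CPM and 16.6 in brain, and Oxct1, the enzyme that commits ketone bodies to oxidation, had 256 and 137 CPM. Acat1, which splits acetoacetyl-CoA, had 89.7 CPM in heart and 34.2 in brain.

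Lipid droplet genes had 2 of 9, Plin4 and Pnpla2, higher in heart and 1 higher in brain. Plin4, a droplet coat protein, had 55.7 CPM in heart and 2.4 in brain, Mgll, monoacylglycerol lipase, 81.2 and 60.3, and Lipe, hormone-sensitive lipase, 14.8 and 59.9. None of the 8 peroxisomal oxidation genes passed the rule, with Abcd3 at 46.8 CPM in heart and 36.6 in brain and Hsd17b4 at 36 and 32.4. None of the 3 genes of thioesterases and uncoupling did either, with Acot13 at 33.5 and 10.1, Acot2 at 12.5 and 2.21, and Ucp3 at 7.6 and 2.56. The median of fatty acid synthesis was -1.35 on the log2 scale, with 2 of 8 higher in brain, a share near the 17.2% of all features. Scd2, a desaturase, had 9.26 CPM in heart and 245 in brain, Elovl6, an elongase, 13.2 and 70.4, and Acaca, acetyl-CoA carboxylase, 47.9 and 105.

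**Figure D2:**
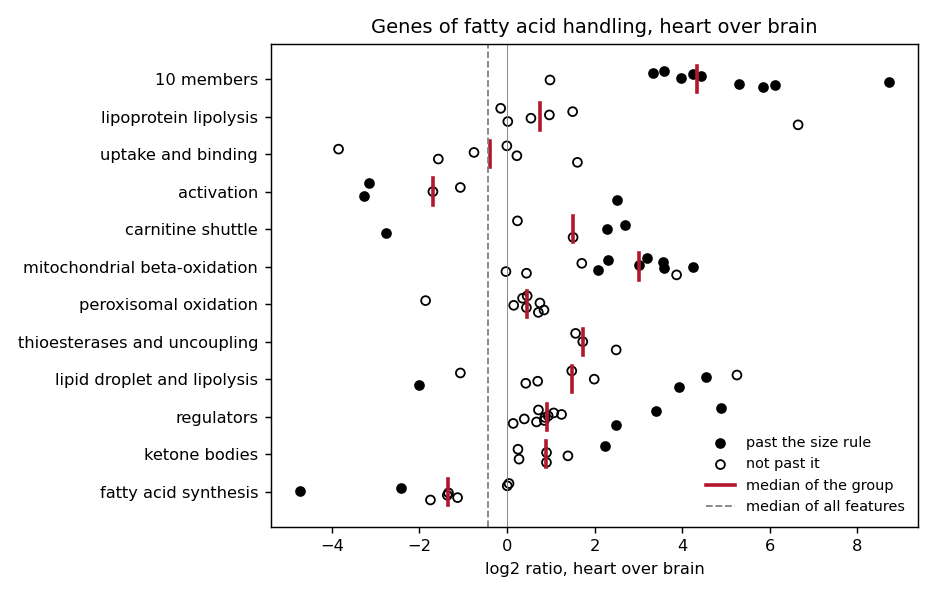
Log2 ratio of heart over brain for the 10 genes (top) and the 79 other genes of fatty acid handling with counts, by group; each circle is a gene, filled where it is at least 4-fold apart at 20 CPM or more, with the group median in red and the median of 11925 features at -0.43 as a dashed line. Mitochondrial beta-oxidation has the highest group median after the 10 genes (3.01), and activation (-1.69) and fatty acid synthesis (-1.35) lie on the brain side. The median of uptake and binding (-0.38) lies near the dashed line.

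Lpl had a count in 3210 of 3726 heart spots, with a median of 7 and at most 89 counts in a spot. To compare spots of unequal depth each was thinned at random to 2800 counts, which 2939 heart spots and 3060 brain spots allowed and 787 heart spots and 1020 brain spots were too shallow for. At that depth the share of heart spots with a count was 84.2% for Lpl, 67.7% for Cd36, 51.85% for Fabp3, 42.8% for Hadha, 37.5% for Hadhb, 37.1% for Acadl, 34.6% for Acadm, 23% for Fabp4, 20.8% for Acadvl and 8.34% for Cpt2. Snap25, which heart muscle lacks, had a count in 1.5% of the same spots. After thinning, Lpl was found in 95.35% of the spots of region 1 described next, but in 56% of region 5 and 37.1% of region 6. Without thinning these shares ran over the section from 25.1% for Cpt2 to 86.2% for Lpl, and 6.68% for Snap25.

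The 6 heart regions were formed without the 10 genes, the other genes of fatty acid handling and the cell type markers. They comprised region 1 (1226 spots, led by Myl3 and Trim72 and by Fabp4 itself), region 2 (898 spots, Cox6b1, Ndufb6 and Ndufv3), region 3 (510 spots, Dnah7c, 3300005D01Rik and Mocos), region 4 (465 spots, Lrtm1, Kcnd2 and Abca8a), region 5 (315 spots, Myl7, Sln and Myl4) and region 6 (312 spots, Hba-a1, Hbb-bs and Hbb-bt). Region 3 was shallow, with a median of 904.5 counts per spot. Lpl stood at 1205 CPM in region 1, 940.5 in region 2, 787 in region 3 and 1056 in region 4, but at 342 in region 5 and 236 in region 6. With ribosomal RNA included, the intervals of regions 1 to 4 (726 to 1220 CPM in all) lay above those of region 5 (326 to 358) and region 6 (216 to 257).

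Region 5, whose leading genes are light chains and a calcium pump inhibitor of atrial muscle, had lower levels of all 10 genes than the rest of the section. Its 4 atrial markers summed to 947 CPM, against 31.4 in the rest of the section, and its 8 cardiomyocyte markers to 16208 CPM, against 25968, a ratio of 0.624. In region 1, the base of the ratios that follow, the cardiomyocyte markers summed to 28795 CPM, so 0.624 is not on the same base. Set against region 1, the ratios in region 5 were 0.284 for Lpl (0.27 to 0.298), 0.292 for Fabp3, 0.295 for Hadhb, 0.304 for Acadm, 0.34 for Acadvl, 0.341 for Hadha, 0.387 for Fabp4, 0.417 for Cd36 (0.393 to 0.442), 0.466 for Acadl (0.425 to 0.51) and 0.585 for Cpt2 (0.467 to 0.727). Lpl, Fabp3, Hadhb and Acadm thus stood lowest and Acadl and Cpt2 least low, with intervals that do not meet.

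Some genes that act side by side stood in other proportions there than in region 1. Acadl gave 1.65 counts for each count of Acadm in region 5 (1.43 to 1.9), against 1.07 in region 1 (1.03 to 1.12) and 1.04 in region 4 (0.977 to 1.1). Lpl gave 1.39 counts for each count of Cd36 in region 5 (1.29 to 1.49), against 2.04 in region 1 (1.99 to 2.08), and the 1.48 of region 6 (1.29 to 1.69) overlapped that of region 5. Hadha gave 1.27 for each count of Hadhb in region 5 (1.11 to 1.47), against 1.1 in region 1 (1.06 to 1.15), with intervals that overlap. The part of the atrial and fibroblast markers, which were 30.1-fold and 4.24-fold higher in region 5 than in the rest, was not tested.

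Region 6, led by globin genes, was lower than the rest of the section in all 10 genes as well, with ratios to the rest from 0.212 for Fabp4 (0.159 to 0.276) and 0.231 for Lpl to 0.627 for Cpt2 (0.45 to 0.853). Its erythrocyte markers summed to 7781 CPM, against 109 in the rest, and its cardiomyocyte markers to 6873, against 25820, a ratio of 0.266. That ratio lay inside the range of the 10 genes, and its part in them was not tested. Region 1 had the highest level of every gene but Cpt2, which had 33.2 CPM in region 2 and 31.9 in region 1, and its folds over the rest ran from 1.2 for Cpt2 to 1.51 for Fabp4. The intervals of region 1 overlap those of region 4 for Cd36 and Acadvl, that of region 2 for Fabp3 and those of regions 2 to 4 for Cpt2. Outside ribosomal RNA Fabp3 too was higher in region 2, at 896 CPM, than in region 1, at 831.

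**Figure D3:**
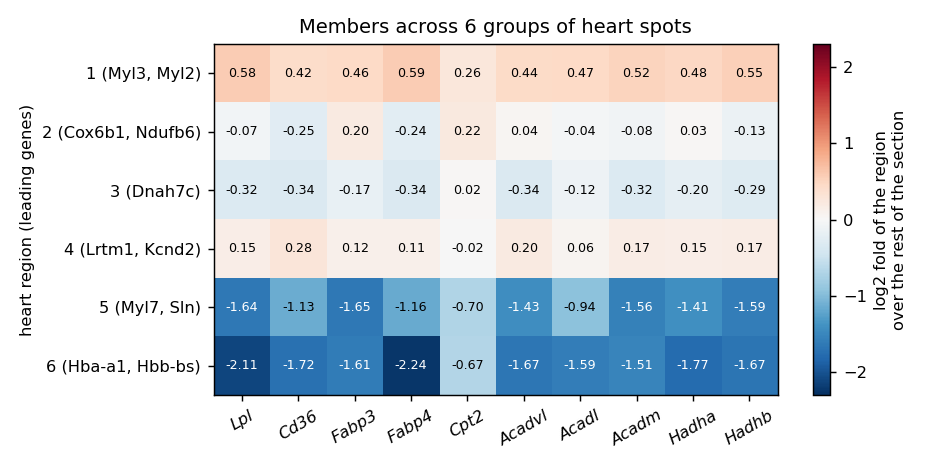
Log2 fold of each heart region over the rest of the section (colour and printed value) for the 10 genes, with regions in rows named by number and leading genes. Region 1 is above the rest for every gene, regions 5 and 6 are below it for every gene, and Cpt2 moves least in both. These folds include ribosomal RNA. Outside it region 2 is above the rest for every gene, from 1.03-fold for Cd36 (0.985 to 1.08) to 1.435-fold for Cpt2 (1.21 to 1.7).

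Over the 6 heart regions the genes whose log2 level ran most like that of Lpl, among 2640 genes of 20 CPM or more and a 2-fold range over regions, were Hadha, Mb (myoglobin), Acaa2, Dsp and Ckmt2, with Pearson r from 0.998 to 0.999. For Cd36 they were Smyd1, Hspd1, Cdh2, Cox5a and Ldha (0.995 to 0.996), for Fabp3 Cyc1, Idh2, Fbxo40, Gpx4 and Rpl3l (0.993 to 0.998), and for Fabp4 Ndufs1, Cox7c, Dld, Gm49708 and Etfa (at least 0.997). With 6 points that share 1 library, many genes reach such values, and they are given as a description.

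From spot to spot the rank correlations between the 10 genes were weak, at few counts per spot. In 2850 heart spots thinned to 1500 counts outside ribosomal RNA, Spearman rho was 0.282 between Lpl and Cd36, 0.257 between Lpl and Hadha, 0.256 between Lpl and Fabp3 and 0.106 between Hadha and Hadhb. Between Lpl and the summed cardiomyocyte markers rho was 0.524, and with those markers it was 0.366 for Cd36, 0.302 for Fabp3, 0.176 for Fabp4 and 0.087 for Cpt2. With the summed endothelial markers rho lay between -0.023 and 0.031 for all 10. These spots share 1 library. The thinned means were 3.24 counts for Lpl, 0.750 for Hadha, 0.659 for Hadhb, 0.351 for Fabp4 and 0.102 for Cpt2. For the summed endothelial markers the mean was 1.24 counts. At such low means counting error alone weakens rho, so a weak rho here is no finding.

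In brain Lpl was concentrated in a small group of spots. Of its 637 counts, 382 (60.0%) lay in region 8, which was led by 4921539H07Rik, Neurod6 and Ctxnd1. Region 8 held 143 of the 4080 spots, but these were deep and gave 5057468 of the section's 37143546 counts. Region 8 had 75.5 CPM of Lpl (68.2 to 83.5), against 7.95 CPM in the rest of the section, a 9.5-fold difference (8.09 to 11.2). Without thinning, Lpl was counted in 102 of the 143 spots of region 8. All 34 brain spots with 5 or more counts of Lpl belonged to region 8, with at most 12 counts in a spot, and they too are not thinned.

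Region 7 (158 spots, with Penk and Drd2 among its leading genes) came next, with 62 counts and 54.5 CPM (41.8 to 69.9), a 3.41-fold difference from the rest (2.58 to 4.44). The intervals of regions 7 and 8 overlap by little. The other regions had 2.44 to 10.3 CPM: region 10 (64 spots, Dsp, Maml2 and Slc29a4) 10.3, region 6 (191 spots, Fmod, Ptgds and Thbd) 9.15, region 1 (1008 spots, Pdzrn3, Hs3st2 and Mef2c) 7.82, region 9 (71 spots, Ttr, Sostdc1 and Kl) 7.62 and region 3 (735 spots, 3300005D01Rik, Ptgds and Fn1) 7.51. Region 2 (822 spots, Pmch, Avp and Dlk1) had 3.24 CPM, region 5 (223 spots, 1700047M11Rik, Mog and Cldn11) 2.91 from 2 counts and region 4 (665 spots, Shox2, Prkcd and Synpo2) 2.44. The intervals of these other regions overlap for most neighbours in that order.

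Depth differed between these regions. Spots of region 8 had a median of 29855 counts and spots of region 10, which also carry hippocampal markers, 33821. Hippocampal markers summed to 619 CPM in region 8, against 180 in the rest, and to 744 CPM in region 10, against 195, and Lpl was 7.33-fold higher in region 8 than in region 10 (5.08 to 10.9). After thinning to 2800 counts Lpl was found in 17.0% of region 8 spots (11.1 to 24.5), 12.1% of region 7 spots (7.45 to 18.2), 1.59% of region 10 spots (0.0402 to 8.53) and 1.85% of region 1 spots (1.1 to 2.91). Over the whole brain section that share was 2.58% (2.05 to 3.21), against 0.425% for Myh6, which brain lacks, and 7.72% without thinning.

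**Figure D4:**
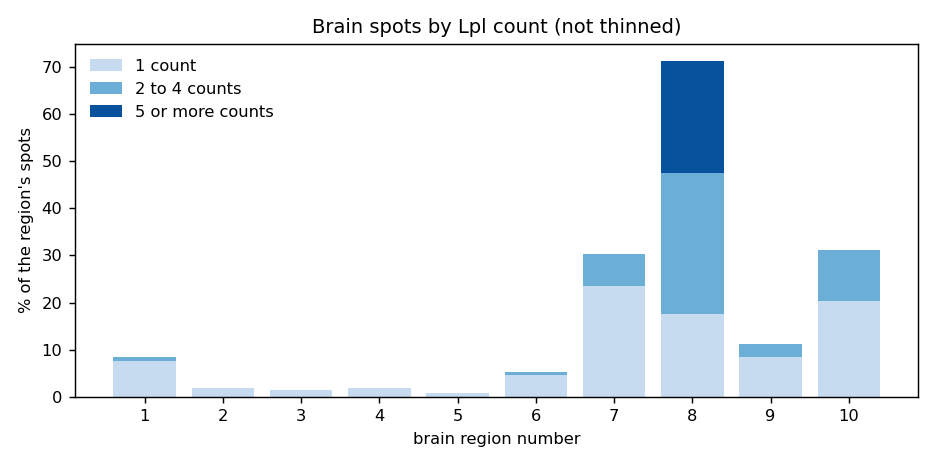
Share of the spots of each brain region with 1, with 2 to 4 and with 5 or more counts of Lpl, as deposited and not thinned; bars start at 0. In region 8 the share with any count is 71.3%, and no other region has a spot with 5 or more.

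Region 8 was uneven within itself. A further grouping of its 143 spots, chosen after the values were seen, gave 4 groups. Group 8.1 (52 spots, led by Cpne9, Cdh9 and Rph3a) had 102.5 CPM of Lpl (89 to 117), against 61.7 in group 8.2 (42 spots, Wfs1, Gm2164 and Kcnh7; 51.7 to 73.1), 50.1 in group 8.4 (21 spots, Rgs14, Gm43154 and Vcan; 33 to 72.9) and 41.1 in group 8.3 (28 spots, Adarb2, Dlx6os1 and Bcan; 21.9 to 70.2). The interval of group 8.1 lay above the others, which overlap.

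The genes most like Lpl over the 10 brain regions, among 3851 compared, were Ccdc88c (Pearson r 0.931), Gm10754 (0.906), Dpy19l3 (0.884), Zswim6 (0.882) and Smpd3 (0.870), a sphingomyelin phosphodiesterase. Of these, Dpy19l3 was highest in region 8, as Lpl was, at 73.4 CPM, and the others in region 7, such as Smpd3 at 103 CPM. The points share 1 library and differ in depth.

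The other 9 genes did not follow Lpl in brain. In region 8 none of them had a fold over the rest whose interval excluded 1 on the high side except Fabp3, at 11.5 CPM, against 7.01 (1.64-fold, 1.2 to 2.19). Fabp3 had 10.7 CPM in region 4 (8.11 to 13.9) and 8.64 in region 1, but a lone count in region 7, or 0.879 CPM (0.0222 to 4.9), and 2.33 CPM in region 10 (0.935 to 4.79). In region 7, where Lpl was 3.41-fold above the rest of the section, Fabp3 stood at 0.112 times the rest (0.00283 to 0.63).

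Acadl was highest in region 6, which holds markers of meninges, at 32.4 CPM (23.1 to 44.3), against 7.85 in the rest, a 4.13-fold difference (2.88 to 5.79), although the intervals of regions 5 and 9 overlap that of region 6. Cd36 was also highest there, at 19.96 CPM, against 6.9 (2.89-fold, 1.82 to 4.4), from 24 counts, and Acadm at 20.8, against 8.68 (2.39-fold, 1.53 to 3.6), with intervals that overlap those of 4 other regions for Cd36 and 6 for Acadm. In region 6 meningeal markers summed to 1387 CPM, against 33.4 in the rest, endothelial markers to 326, against 103, fibroblast markers to 285, against 29.7, and fat markers to 14.97, against 9.71. Their part in these levels was not tested.

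Hadha and Hadhb were highest in region 9, led by transthyretin (Ttr) and other choroid plexus genes, at 36.9 CPM (28 to 47.6), against 21.48 in the rest, and at 27.3 CPM (19.8 to 36.8), against 16.02. For each of the pair the interval of region 9 overlaps those of 6 of the 9 other regions, so region 9 is not set apart from them. The folds over the rest were 1.72 (1.29 to 2.24) and 1.71 (1.22 to 2.33). Acadvl had 11.4 CPM there, against 5.71 in the rest (2-fold, 1.16 to 3.25), with an interval that overlaps those of 8 of the 9 other regions. Cpt2 ran from 9.97 CPM in region 10 to 22.4 in region 6, and its intervals overlap for most regions. Fabp4 had at most 3 counts in any brain region, and its count of 0 in regions 3, 5, 7 and 8 says little at this depth.

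**Figure D5:**
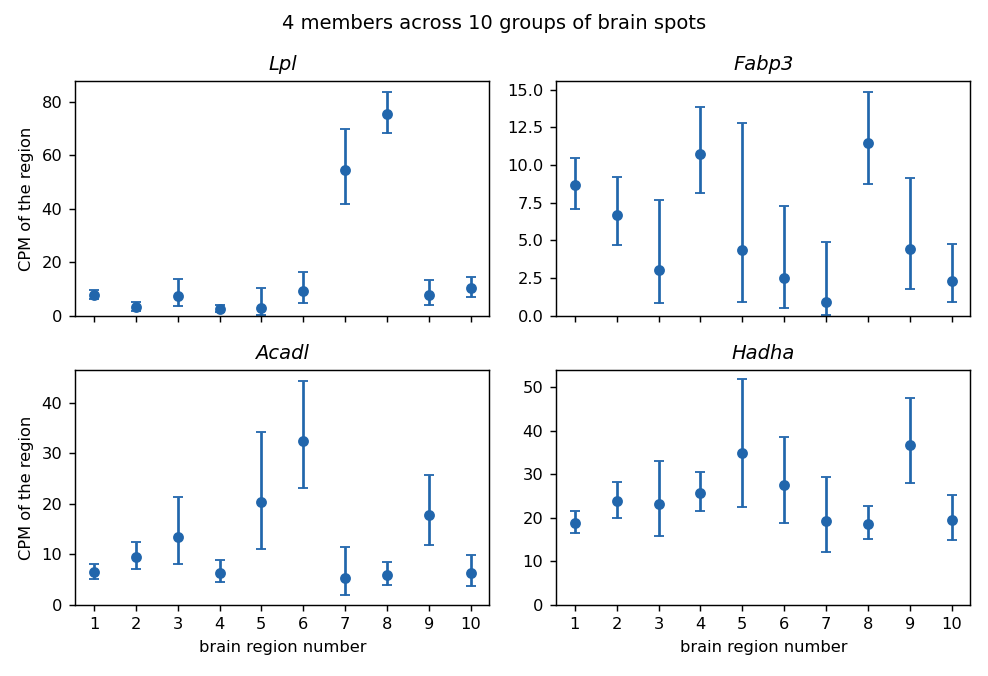
Level of Lpl, Fabp3, Acadl and Hadha in CPM in the 10 brain regions, with 95% Poisson intervals for counting error; each panel has its own axis from 0. Lpl peaks in regions 8 (75.5 CPM) and 7 (54.5). Fabp3 is highest in region 8, where its interval overlaps those of 5 other regions. Acadl is highest in region 6 (32.4) and Hadha in region 9 (36.9), where the interval of Hadha overlaps those of 6 other regions.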

How the data were processed

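The deposited values are counts: for each section the authors gave a sparse matrix of whole numbers, 40276 features by 4992 barcodes. Per the submitters' processing notes, reads were handled with STARsolo and genome build mm39. Whether molecular tags were merged, introns counted or strand used is not given in the sources used here, so intervals cover counting error only. Barcodes with at least 500 counts and 200 features were kept and summed per section. Intervals are exact Poisson, binomial and conditional binomial ones at 95%. The size rule was 4-fold and 20 CPM, and 0.5 counts were added to sums before logs. Gene lengths, positions and overlaps came from the GENCODE annotation of GRCm38, matched by gene ID, and promoters from RefSeq.

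Regions were Leiden clusters (scanpy 1.11.5, leidenalg 0.10.2, resolution 0.6) of log depth-scaled counts of 2000 variable genes, with 20 principal components and 15 neighbours, without the members, listed genes, markers, mitochondrial genes and ribosomal RNA. Spots were not screened for doublets. The ratio and size rule steps were tested on simulated data. Members and lists were chosen with earlier results of these data known. Named were all members, the 3 highest genes of each group and those that go against their group 2-fold at 20 CPM, the 3 leading genes of a region at 50 CPM or more, and the 5 genes most like a member over regions; Ppara, Acacb and Pnpla2 were added after their values were seen. A few genes that this rule names are not reported here. Alternatives changed the scaling, spot threshold, weight of spots, clustering resolution and thinning. Python 3.11.15, SciPy 1.17.1 and matplotlib 3.10.9 were used.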

Additional observations from a re-analysis of the deposited data

Results flagged for a closer look

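Barcodes under the spot threshold, which enter no comparison above, also held counts of the 10 genes, 370 in heart and 18 in brain, among 154831 counts of such barcodes in heart and 156957 in brain. Scaled to those totals they came to 2390 CPM in heart and 115 CPM in brain, against 2794 and 109 CPM in the kept spots. Lpl gave 130 of the heart counts and 1 of the brain counts. Whether these barcodes lie over tissue was not tested.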

How the results depend on the processing

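Over the alternatives run, 9 of the 10 genes stayed past the size rule in heart, and no ratio of the 10 changed direction. The median log2 ratio of the 10 genes moved to 4.86 with CPM outside ribosomal RNA, to 4.895 outside ribosomal, mitochondrial and small structured RNA, and to 3.88 with each spot given the same weight. For the other genes of fatty acid handling the first 2 of these scalings gave medians of 1.24 and 1.28 and counts higher in heart of 25 and 26, in place of 0.72 and 16. On the scaling outside ribosomal RNA the ratios of Lipg, Dbi and Acad9 crossed from below to above 1. The fold of Lpl in its highest brain region ran from 3.24 to 3.26 on the log2 scale over clustering resolutions, scalings and spot thresholds, but its share of spots was 2.02% when thinned to 1500 counts outside ribosomal RNA. Apart from what the construction of a scaling fixes, the cause of these moves was not tested. Few counts limit the precision of some brain values, such as that of Fabp4, which rests on 9 counts. No paired analysis was possible because each tissue is 1 section.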
